A study of Mus musculus with 9 samples.

Results

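Spp1, Cd44, Epcam, Cd24a, Cd34, Prom1, Cftr, Pkhd1 and Bicc1 are 9 genes used to recognise bile duct cells and liver progenitor cells. They were taken by symbol from the 55276 genes of a count table made from cultured mouse cholangiocarcinoma cells, and each symbol named 1 row. The PPTR tumor cells carry Prom1CreERT2, a tamoxifen-dependent Cre recombinase expressed from the Prom1 locus, with the floxed alleles Ptenflx/flx and Tp53flx/flx and the Rosa-ZsGreen reporter. These alleles are shared by all groups, and all cells were grown as lines in Dulbecco's medium with fetal bovine serum and antibiotics. The groups were the control cells, labelled WT in the deposited data and called Vcam1 ctrl in the study, and the Cas9-edited Vcam1 knockout lines KO1 and KO2, with 3 libraries each and 9 in all. KO1 and KO2 are each 1 single-cell clone, and the 3 libraries of a group came from different passages of the same cells. Their spread is therefore that of cultures of 1 line, and a difference between WT cells and a clone cannot be told apart from what sets that clone apart from the culture it was picked from. The question asked of these genes is how far the cells kept or lost biliary and progenitor marker transcripts in the clones.

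The bile duct is lined by cholangiocytes, polarised epithelial cells that modify bile through apical channels and sense its flow with a primary cilium. After liver injury, cells with biliary markers multiply in the ductular reaction, and some of them behave as progenitors of both biliary cells and hepatocytes. The 9 genes cover different sides of this identity: a secreted ligand and its receptor (Spp1, Cd44), surface glycoproteins (Epcam, Cd24a, Cd34, Prom1), an apical chloride channel (Cftr), and proteins tied to the cilium and to cystic disease (Pkhd1, Bicc1).

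The genes did not move together. Spp1 and Pkhd1 were higher in both clones, and Epcam, Cd34 and Cftr fell to almost no counts in both. Cd44 was lower in both but much more so in KO1. Cd24a and Bicc1 had no called change, and Prom1 had too few counts to be part of the main test. Against WT, 2 genes were called higher and 4 lower in KO1, of 8 tested. In that comparison 59.9% of all tested genes were called, 29.9% higher and 30.0% lower. Against WT, 2 genes were called higher and 4 lower in KO2, where 51.4% of all tested genes were called, 25.3% higher and 26.1% lower. The median log2 fold change of the 8 tested genes was -1.16 in KO1 and -0.18 in KO2, against 0.02 and 0.00 over all genes tested. With both clones pooled against WT, 2 genes were called higher and 3 lower, and 43.0% of all tested genes were called, 21.7% higher and 21.2% lower. The 6 clone libraries did not overlap the WT libraries in 6 of the 9 genes, against 44.2% of all tested genes. Between the clones Cd44 alone was called by edgeR, lower in KO1, where 38.7% of all tested genes were called, 20.2% higher and 18.5% lower in KO1. At an unadjusted p below 0.05, and by DESeq2, 1 gene was higher in KO1, which was Pkhd1. A large share of all tested genes was called too, so the number of genes called is not read here as a result, and what follows concerns which of them changed and by how much. A gene was called where its adjusted p was below 0.05, with p-values from the quasi-likelihood test of edgeR adjusted by the Benjamini-Hochberg method over 17672 tested genes. Both clones were set against the same 3 WT libraries, so the comparisons with WT are not independent of each other.

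**Figure D1:**
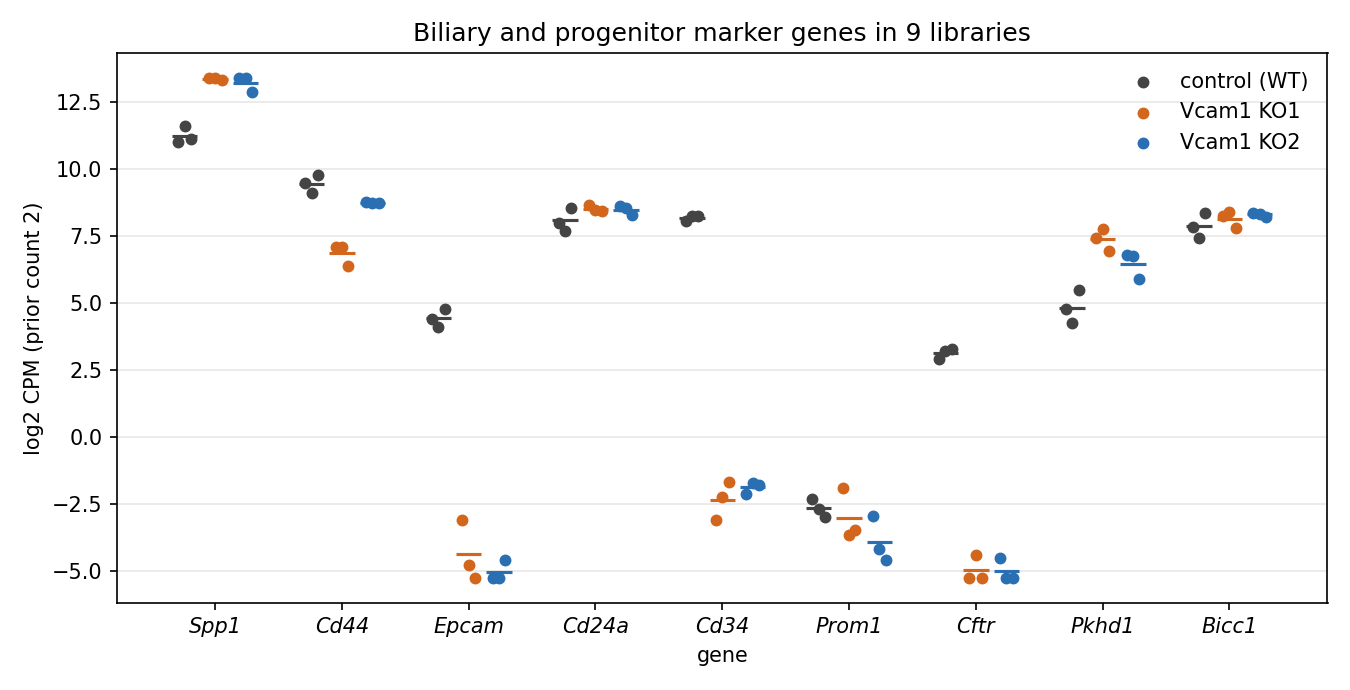
Log2 CPM (CPM is a gene's counts as a share of the TMM-scaled library total, in parts of 1e+06, here with a prior count of 2) of the 9 genes on the vertical axis, with 1 point per library, colours for WT, KO1 and KO2, and a line at the mean of each group. Epcam, Cd34 and Cftr of all 6 clone libraries lie far below WT, Spp1 and Pkhd1 lie above it, and Prom1 is low in every library.

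The libraries held between 53415907 and 125223073 counts, so that 3 counts, used here as the limit of detection, stood for 0.0240 to 0.0562 CPM. Vcam1, the targeted gene, was at 221 to 329 CPM in WT libraries, 92.4 to 128 in KO1 and 83.0 to 119 in KO2, and its level did not differ between the clones by the test (log2 difference 0.09, 95% interval -0.35 to 0.53, edgeR adjusted p = 0.75). Within a group, libraries differed by a root mean square of 0.48 to 0.83 log2 CPM over the tested genes, most between KO1 replicates 1 and 3. Without KO1 replicate 3 the counts of called genes against WT were the same, 2 higher and 4 lower in either clone. Because RNA was taken from bulk cultures, fewer cells with a transcript and less of it per cell cannot be told apart.

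The labels describe a liver cancer model, and the study calls the cells intrahepatic cholangiocarcinoma. In WT cells the biliary keratins were present, with Krt7 at 107, Krt19 at 2292 and Krt18 at 3408 CPM on average. In the clones these defining keratins were below 1 CPM. Krt7 averaged 0.354 CPM in KO1 and 0.597 in KO2, Krt19 0.0596 and 0.149, and Krt18 0.0384 and 0.0154. The biliary transcription factor Sox9 averaged 127 CPM in WT, 232 in KO1 and 170 in KO2 cells, and was not called against WT in either clone. The biliary label therefore held for WT cells by the markers Krt7, Krt19, Sox9, Epcam and Spp1, while in the clones Krt7, Krt19 and Epcam were near 0 and Sox9 and Spp1 were not.

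For 7 of the 9 genes RefSeq (GRCm38.p6) gives 9 promoter windows. The 250 bases before the start site are printed for both genes that rose, Spp1 and Pkhd1, and for the 3 that were almost lost, Epcam, Cftr and Cd34, to set beside each other the start regions of genes that moved in opposite directions. Windows are 5′ to 3′ on the gene's strand: Spp1 chr5:104434861-104435110 (+), Pkhd1 chr1:20618058-20618307 (-), Epcam chr17:87635729-87635978 (+), Cftr chr6:18170437-18170686 (+) and Cd34 chr1:194938571-194938820 (+). Capitals mark matches, on either strand, to the letters of 6 motifs. For the E-box the letters CACCTG were searched, for the TATA box TATAAA, for the GC box GGGCGG, for TEAD factors GGAATG, for AP-1 TGANTCA and for grainyhead-like factors AACCGGTT.
Spp1: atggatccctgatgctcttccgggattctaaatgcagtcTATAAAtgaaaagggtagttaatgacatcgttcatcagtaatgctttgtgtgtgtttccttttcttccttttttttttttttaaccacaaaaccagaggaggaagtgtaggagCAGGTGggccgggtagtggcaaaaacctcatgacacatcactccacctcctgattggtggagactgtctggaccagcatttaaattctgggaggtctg
Pkhd1: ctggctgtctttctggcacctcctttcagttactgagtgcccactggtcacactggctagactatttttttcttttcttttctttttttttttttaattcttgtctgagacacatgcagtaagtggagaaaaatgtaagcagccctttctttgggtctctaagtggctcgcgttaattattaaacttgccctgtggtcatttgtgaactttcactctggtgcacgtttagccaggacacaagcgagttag
Epcam: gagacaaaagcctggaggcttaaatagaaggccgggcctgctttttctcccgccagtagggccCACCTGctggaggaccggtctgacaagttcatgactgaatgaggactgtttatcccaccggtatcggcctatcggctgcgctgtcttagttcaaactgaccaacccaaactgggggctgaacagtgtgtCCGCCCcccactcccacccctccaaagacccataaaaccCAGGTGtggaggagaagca
Cftr: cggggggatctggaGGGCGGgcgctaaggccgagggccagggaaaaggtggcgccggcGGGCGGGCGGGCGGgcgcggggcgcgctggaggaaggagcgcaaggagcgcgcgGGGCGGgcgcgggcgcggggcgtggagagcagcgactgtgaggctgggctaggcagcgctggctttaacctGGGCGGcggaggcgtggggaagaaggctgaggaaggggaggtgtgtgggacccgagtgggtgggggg
Cd34: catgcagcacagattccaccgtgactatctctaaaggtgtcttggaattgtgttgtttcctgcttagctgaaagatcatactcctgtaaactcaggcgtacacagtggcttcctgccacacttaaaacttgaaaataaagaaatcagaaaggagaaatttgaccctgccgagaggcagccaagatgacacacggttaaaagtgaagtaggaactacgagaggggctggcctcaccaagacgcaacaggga
Of both genes that rose, Pkhd1 held none of these letters in its window, and the printed window of Spp1 held the letters of a TATA box at bases -211 to -206 from the start site (13.6% of all 32851 windows hold them) and of an E-box (20.2% of windows), which SNAI and ZEB repressors and other E-box factors can bind. The other Spp1 window, at chr5:104435942-104436191 and not printed, held none of the 6 motifs. Epcam held E-boxes on both strands and a GC box (35.7% of windows). Cftr held 6 GC boxes, 3 of them overlapping, in a window of 76.4% G and C, against a median of 52.4% over all windows. Cd34 held none of the 6 motifs. AP-1 letters (7.81% of windows) were found only in both Prom1 windows, and TEAD (14.7%) and grainyhead-like (0.146%) letters in none. A further motif had been planned, the half-site GTTAAT of HNF1 factors, and was not searched. Its letters stand unmarked in the printed Spp1 and Pkhd1 windows. They are on neither strand of the printed Epcam, Cftr and Cd34 windows. The share of all windows that hold them was not counted. A match is a description of letters, and binding was not measured.

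Spp1 encodes osteopontin, a secreted phosphoprotein of the matrix that binds integrins and CD44 and is among the usual marker transcripts of cholangiocytes. It lies at chr5:104435118-104441050 on the plus strand of GRCm38. It stood at 2066, 3133 and 2223 CPM in the WT libraries, at 10794, 10769 and 10166 in KO1, and at 10797, 10664 and 7459 in KO2. Every clone library was above every WT library, and KO2 replicate 3 was the lowest of the clone libraries. The mean rose from 2474 ± 576 CPM in WT to 10576 ± 356 in KO1 and 9640.0 ± 1890.2 in KO2 (SD, n = 3 each). That was a 4.28-fold rise in KO1 (log2 fold change 2.10, standard error 0.22, edgeR adjusted p = 3.1e-05) and a 3.90-fold rise in KO2 (1.96, standard error 0.21, edgeR adjusted p = 5.6e-05). The clones differed by 0.13 on the log2 scale with a 95% interval from -0.33 to 0.60 (edgeR adjusted p = 0.64).

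Spp1 alone made up 0.207% to 0.318% of all counts in a WT library, 1.0% to 1.12% in KO1 and 0.767% to 1.06% in KO2. Divided by the length of its longest transcript, it ranked number 16 of 53387 genes in WT cells at 1642 CPM per kb and number 1 in both clones, at 7018 in KO1 and 6397 in KO2. With the median transcript length of each gene the ranks were 60 in WT, 2 in KO1 and 3 in KO2. Gm42793, an unproven transcript on the same strand, shares 14.3% of the 31-base words of Spp1 transcripts and held 0.0285% to 0.941% as many counts. These counts limit only what Spp1 could have lost to Gm42793, and reads of Gm42793 assigned to Spp1 were not measured.

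Cd44 encodes the main receptor of hyaluronan, which also binds osteopontin, and it is used as a marker of progenitor-like and tumor-initiating cells. It lies at chr2:102811141-102901665 on the minus strand. Its levels were 708, 545 and 870.1 CPM in WT, 137, 137 and 83.3 in KO1, and 439, 427 and 426 in KO2. The groups did not overlap in any pair: WT was highest, KO2 next and KO1 lowest. The mean fell from 707 ± 163 CPM in WT to 119 ± 30.95 in KO1 and 431 ± 7.39 in KO2 (SD, n = 3 each). In KO1 Cd44 was 5.95-fold lower (log2 fold change -2.57, standard error 0.23, edgeR adjusted p = 1.3e-05).

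In KO2 Cd44 was 1.64-fold lower (log2 fold change -0.72, standard error 0.22, edgeR adjusted p = 0.021). This call was lost when any of 5 libraries was left out, with an adjusted p of 0.052 without WT replicate 1, 0.078 without WT replicate 3, and 0.060, 0.063 and 0.060 without KO2 replicates 1, 2 and 3. The clones themselves differed by 3.62-fold (log2 difference -1.86, 95% interval -2.36 to -1.35, edgeR adjusted p = 3.0e-04). With both clones pooled, this difference counted as spread, and Cd44 was at -1.36 with an edgeR adjusted p of 0.061. The pooled change was called with limma-voom (-1.63, adjusted p = 0.049), DESeq2 (-1.41, 0.026), upper quartile normalization (-1.41, 0.047) and the average of the clone contrasts (-1.64, 4.3e-05).

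**Figure D2:**
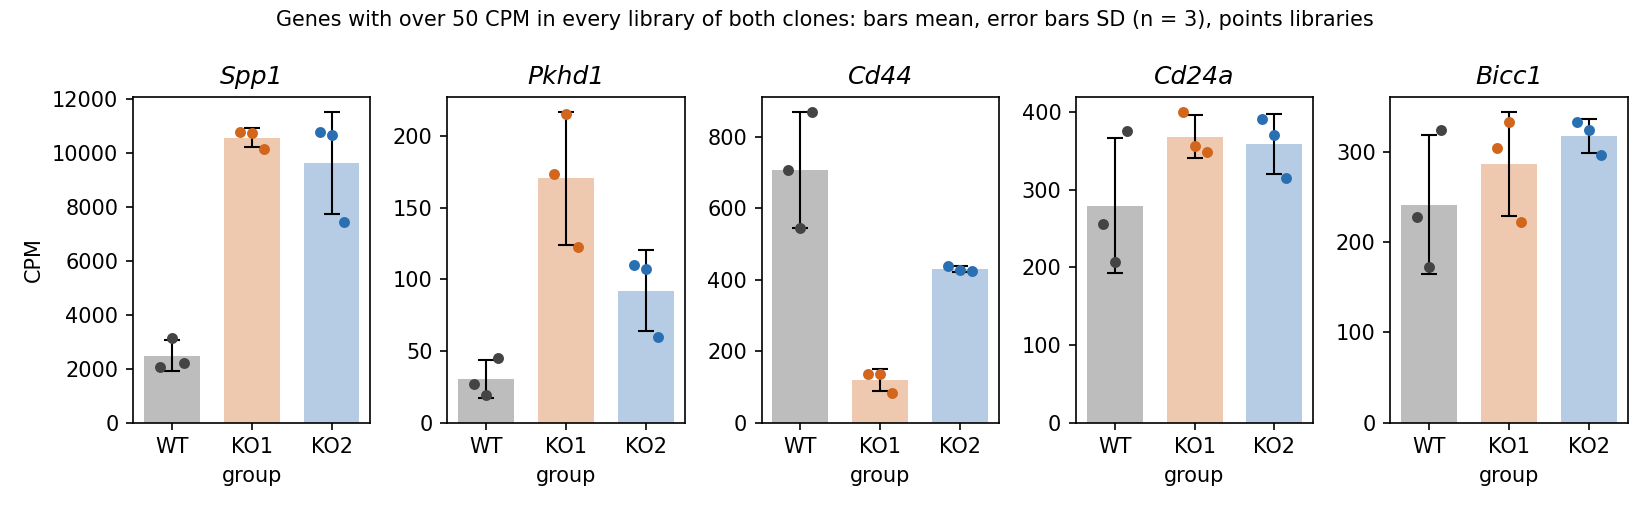
CPM of Spp1, Pkhd1, Cd44, Cd24a and Bicc1, the genes with over 50 CPM in every clone library, in panels with their own vertical axes from 0. Bars are group means, error bars the SD over 3 libraries and points the libraries: Spp1 and Pkhd1 stand above WT in both clones, Cd44 falls from 707 to 431 in KO2 and to 119 in KO1, and the points of Cd24a and Bicc1 overlap between groups.

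The other genes of the osteopontin and hyaluronan system were read from a list of integrins, hyaluronan enzymes and linkers. Of 19 tested, 7 were called higher and 4 lower in KO1, and 6 higher and 3 lower in KO2, with median log2 fold changes of 0.42 and 0.30. Vcan, the hyaluronan-binding proteoglycan versican, rose from 44.1 CPM in WT to 473 in KO1 and 277 in KO2 (log2 fold change 3.42, edgeR adjusted p = 1.2e-06, and 2.65, edgeR adjusted p = 5.8e-06). Itga9, a subunit of an osteopontin-binding integrin, rose from 0.135 to 5.08 CPM in KO1 and 54.6 in KO2, and differed between the clones (-3.43, edgeR adjusted p = 2.2e-05). Ezr, which links CD44 to the actin cytoskeleton, fell from 1022 to 150.5 and 132 CPM (-2.76, edgeR adjusted p = 3.6e-07, and -2.95, edgeR adjusted p = 3.9e-07). Has2, a hyaluronan synthase, fell from 8.99 to 1.28 and 1.35 CPM (-2.82, edgeR adjusted p = 0.0013, and -2.74, edgeR adjusted p = 0.0018). The ligand Spp1 and the receptor Cd44 thus moved in opposite directions, with called members of their system on both sides.

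Epcam encodes the epithelial cell adhesion molecule, which marks bile duct cells and hepatic progenitors and is absent from mature hepatocytes. It lies at chr17:87635979-87651129 on the plus strand. The WT libraries held 2683, 943 and 2149 counts of it, or 21.4, 17.4 and 27.2 CPM, a mean of 21.99 ± 4.92 (SD, n = 3). The KO1 libraries held 6, 1 and 0 counts and the KO2 libraries 0, 0 and 1. All clone libraries but KO1 replicate 1 were therefore at or under the limit of 3 counts. In CPM terms Epcam was 718 times higher in WT than in KO1, with a counting interval of 348 to 1787, and 4390 times higher than in KO2, with an interval of 788 to 173420 that rests on a single count. The sizes rest on single libraries, since the fitted log2 fold change of -9.37 in KO1 was -11.49 without KO1 replicate 1, and that of -11.67 in KO2 was -13.74 without KO2 replicate 3, both still called. The fall was called in both clones (edgeR adjusted p = 2.3e-06 in KO1 and 2.5e-06 in KO2), and the clones did not differ by the test (edgeR adjusted p = 0.22).

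Cd34 encodes a sialomucin best known from blood progenitors and endothelium, which has also been used to mark subsets of liver progenitor cells. It lies at chr1:194938819-194961279 on the plus strand. The WT libraries held 33463, 16382 and 23785 counts, or 267, 302 and 301 CPM, a mean of 289.9 ± 20.2 (SD, n = 3). The KO1 libraries held 6, 18 and 18 counts and the KO2 libraries 12, 20 and 18. Among the 9 genes Cd34 had the tightest WT libraries, whose highest value was 1.13 times the lowest, and in both clones it was close to 0. WT was 1526 times higher than KO1 (counting interval 1129 to 2118) and 1119 times higher than KO2 (849 to 1508), with an edgeR adjusted p of 2.5e-08 in KO1 and 3.3e-08 in KO2. The clones did not differ by the test (log2 difference -0.44, 95% interval -1.16 to 0.29, edgeR adjusted p = 0.31). 

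Of the markers of other cells that express Cd34, Pecam1 and Cdh5, which define endothelium, averaged 0.704 and 0.495 CPM in WT cells, and Ptprc, the pan-leukocyte gene, averaged 0.410 CPM. Over whole marker lists the summed endothelial level ran from 75.6 to 125.02 CPM in WT, 17.6 to 27.6 in KO1 and 68.0 to 82.1 in KO2 for 16 genes, of which 6, 3 and 9 had no more than 3 counts in any library of the group. Flt1, a VEGF receptor chosen here after its values were seen, made up 74.7% to 79.8% of that sum in WT libraries, and averaged 74.8 CPM in WT, 15.1 in KO1 and 68.9 in KO2. The summed haematopoietic level ran from 8.58 to 21.7, 9.85 to 13.0 and 7.90 to 11.4 CPM for 16 genes, with 7, 7 and 6 at no more than 3 counts. Of 7 tested endothelial genes 1 was called higher and 4 lower in KO1 and 1 higher and 2 lower in KO2; Esam fell from 6.93 to 0.230 and 0.157 CPM and Egfl7 from 11.1 to 4.40 and 1.12. Of 7 tested haematopoietic genes 2 were called higher and 4 lower in KO1 and 1 higher and 4 lower in KO2. The part of such cells in the Cd34 level was not tested.

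Cd24a encodes a small glycoprotein anchored to the membrane by lipid, which is high on biliary and progenitor cells and binds Siglec receptors. It lies at chr10:43578284-43584265 on the plus strand. It stood at 256, 207 and 376 CPM in WT, 400.2, 356 and 349 in KO1, and 391, 371 and 316 in KO2. The WT libraries spread more than those of either clone, and WT replicate 3 lay inside the range of both clones. The log2 fold change was 0.40 in KO1 (95% interval -0.06 to 0.85, edgeR adjusted p = 0.12) and 0.36 in KO2 (-0.10 to 0.82, edgeR adjusted p = 0.17), intervals that allow no change as well as a rise of up to 0.85 on the log2 scale. Without WT replicate 3, Cd24a was called higher in KO1 (0.66, edgeR adjusted p = 0.0065), in KO2 (0.63, edgeR adjusted p = 0.0099) and with the clones pooled (0.65, edgeR adjusted p = 0.014). The call for Cd24a thus hung on 1 control library.

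Prom1 encodes prominin-1 or CD133, a protein of membrane protrusions used to mark liver progenitors, and its locus drives the Cre of this model. It lies at chr5:43993620-44102032 on the minus strand. The libraries held 22, 7 and 8 counts in WT, 16, 5 and 4 in KO1, and 6, 2 and 1 in KO2, which is 0.0148 to 0.240 CPM over all 9. Prom1 was thus close to the limit of detection in every group, control cells included, did not pass the filter on low counts and was not part of the main test. In CPM terms WT was 1.29 times KO1 (counting interval 0.755 to 2.23) and 3.13 times KO2 (1.48 to 7.36), intervals that cover counting error only. Without the filter the edgeR adjusted p was 0.79 in KO1 and 0.18 in KO2, so no difference was called. For KO2 the counting interval lay above 1, but it leaves out the spread between libraries, which the edgeR test counts.

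Of 13 tested partners and relatives of the surface proteins, 5 were called higher and 7 lower in KO1, and 4 higher and 6 lower in KO2, with median log2 fold changes of -0.54 and -0.37. Podxl, the sialomucin podocalyxin of the CD34 family, fell from 149 CPM in WT to 0.545 in KO1 and 8.08 in KO2 (-8.09, edgeR adjusted p = 3.3e-07, and -4.20, edgeR adjusted p = 5.5e-06). Podxl2, the third member of that family, rose from 0.364 to 18.4 and 6.32 CPM (5.59, edgeR adjusted p = 1.1e-04, and 4.05, edgeR adjusted p = 7.4e-04). Within this small family Cd34 and Podxl were therefore lower and Podxl2 higher in both clones. Siglecg, a receptor of Cd24a, rose from 0.0467 to 0.524 and 4.56 CPM. Esrp1, a splicing regulator of epithelial cells that acts on Cd44 transcripts, fell from 7.16 CPM to 0.0150 in KO1 and to 0 counts in KO2. Cldn7, which binds EpCAM, had 0 counts in every library, WT included, which allows a level of up to 0.0562 CPM in the shallowest. Splice forms of Cd44 cannot be read from counts per gene.

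Cftr encodes the cAMP-gated chloride channel of the apical cholangiocyte membrane that drives secretion of bicarbonate into bile. It lies at chr6:18170687-18322768 on the plus strand. The WT libraries held 935, 497 and 774 counts, or 7.45, 9.17 and 9.79 CPM, a mean of 8.80 ± 1.21 (SD, n = 3). The KO1 libraries held 0, 2 and 0 counts and the KO2 libraries 1, 0 and 0, all at or under the limit of 3 counts. WT was 960.3 times higher than KO1 (counting interval 266 to 7934) and 1677 times higher than KO2 (301 to 66263), and the fall was called in both (edgeR adjusted p = 1.4e-06 and 2.0e-06). The fitted log2 fold change went from -9.73 to -12.33 in KO1 without KO1 replicate 2 and from -10.35 to -12.44 in KO2 without KO2 replicate 1, both still called, so these sizes rest on the few counts of those libraries. With 3 counts in all 6 clone libraries, a difference between the clones was not detectable.

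Of 12 tested genes that work with Cftr in biliary secretion and transport, 4 were called higher and 7 lower in KO1, and 3 higher and 7 lower in KO2. Aqp1, the water channel of cholangiocytes, fell from 265 to 2.40 and 1.58 CPM (-6.80, edgeR adjusted p = 2.2e-06, and -7.39, edgeR adjusted p = 2.1e-06). Abcc3, a basolateral exporter of bile acids, fell from 235 to 8.40 and 24.9 CPM. Slc4a2, the anion exchanger that releases bicarbonate against the chloride that Cftr supplies, rose from 135 to 491 and 309 CPM (1.86, edgeR adjusted p = 2.5e-06, and 1.20, edgeR adjusted p = 4.7e-05), and Gpbar1, the bile acid receptor of the cholangiocyte cilium and apical membrane, rose from 0.431 to 2.13 and 2.23 CPM.

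Pkhd1 encodes fibrocystin, a large membrane protein of the primary cilium and basal body whose loss causes recessive polycystic kidney disease with malformed bile ducts. It lies at chr1:20057779-20618064 on the minus strand, and its longest transcript has 67 exons. It stood at 27.1, 18.9 and 45.0 CPM in WT, 173, 215 and 123 in KO1, and 109.7, 107 and 59.6 in KO2. The groups did not overlap: every KO2 library was above every WT library, and every KO1 library above every KO2 library. The mean rose from 30.3 ± 13.4 CPM in WT to 170.4 ± 46.3 in KO1 and 92.2 ± 28.2 in KO2 (SD, n = 3 each). Pkhd1 was 5.61-fold higher in KO1 (log2 fold change 2.49, standard error 0.36, edgeR adjusted p = 2.9e-04) and 3.03-fold higher in KO2 (1.60, standard error 0.35, edgeR adjusted p = 0.0041).

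Between the clones Pkhd1 differed by 0.89 on the log2 scale (95% interval 0.11 to 1.66, unadjusted p = 0.030, edgeR adjusted p = 0.070), and 54.9% of all tested genes did not overlap between them. The difference passed the threshold with DESeq2 (adjusted p = 0.041), upper quartile normalization (0.049) and no filter on low counts (0.048), and in edgeR fits without WT replicate 3 (0.041) or KO1 replicate 3 (0.046). Against WT, the libraries of 6 of the 9 genes did not overlap in KO1 and of 6 in KO2, where 66.0% and 62.1% of all tested genes did not.

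Bicc1 encodes an RNA-binding protein that silences transcripts and, like fibrocystin, is linked to cystic kidneys and to bile duct development. It lies at chr10:70922832-71159700 on the minus strand. It stood at 228, 173 and 325 CPM in WT, 305, 333 and 222 in KO1, and 333, 324 and 297 in KO2. The groups overlapped, and the lowest KO1 library lay below WT replicate 1. The log2 fold change was 0.25 in KO1 (95% interval -0.27 to 0.76, edgeR adjusted p = 0.38) and 0.39 in KO2 (-0.12 to 0.91, edgeR adjusted p = 0.18). Without WT replicate 3 it was called higher in KO2 (0.66, edgeR adjusted p = 0.025).

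**Figure D3:**
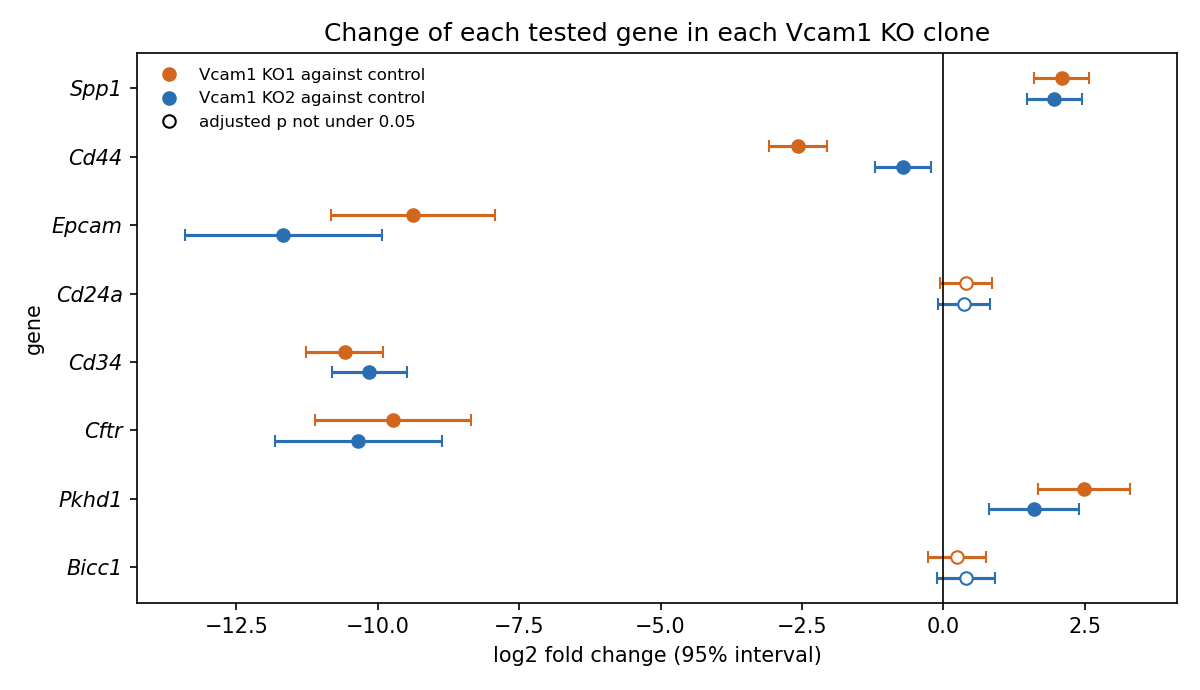
Log2 fold change against WT on the horizontal axis with its 95% interval for the 8 tested genes, KO1 and KO2 side by side, with open points where the adjusted p was not below 0.05. Epcam, Cd34 and Cftr lie beyond -9 in both clones, where the values depend on a few counts, Spp1 and Pkhd1 lie above 0, Cd44 is separated between the clones, and the intervals of Cd24a and Bicc1 include 0.

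Of 20 tested genes of polycystic liver disease and the cilium, 6 were called higher and 4 lower in KO1, and 5 higher and 4 lower in KO2, with medians of -0.14 and -0.12. Pkd1 and Pkd2, which encode polycystin-1 and polycystin-2 of the cilium, rose with Pkhd1. Pkd1 went from 84.2 CPM in WT to 327 in KO1 and 195 in KO2 (log2 fold change 1.96, edgeR adjusted p = 8.1e-05, and 1.21, edgeR adjusted p = 0.0017). Pkd2 went from 91.0 to 364 and 171 CPM (2.0, edgeR adjusted p = 6.5e-06, and 0.91, edgeR adjusted p = 9.9e-04). Both were also higher in KO1 than in KO2, by 0.74 (edgeR adjusted p = 0.029) and 1.09 (edgeR adjusted p = 7.9e-04). Between the clones 9 of the 20 genes were called higher in KO1 and 0 lower by edgeR, with 4 lower at an unadjusted p below 0.05, 0 by limma-voom and 3 by DESeq2.

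Other genes of the list did not move this way. Anks6, which binds Bicc1, was at 0.07 on the log2 scale in KO1 (edgeR adjusted p = 0.62) and fell by 0.46 in KO2 (edgeR adjusted p = 0.010). Arl13b and Tmem67, of the ciliary shaft and transition zone, were lower with the clones pooled, at -0.43 and -0.51 on the log2 scale (edgeR adjusted p = 0.037 and 0.045). By clone both were called in KO1 only, at -0.60 and -0.56 (edgeR adjusted p = 0.0020 and 0.025). In KO2 they were at -0.28 and -0.46 (edgeR adjusted p = 0.080 and 0.062). Pkhd1l1, the paralog of Pkhd1, went the other way from it, from 155 CPM in WT to 0.0035 in KO1 and 0.0739 in KO2 (edgeR adjusted p = 3.3e-07 and 6.0e-07).

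Levels of different genes can be set against each other only per length. In WT cells, with the longest transcript, the order in CPM per kb was Spp1 at 1642 ± 382, Cd24a at 154 ± 48.0, Cd44 at 126 ± 29.0, Cd34 at 94.7 ± 6.59, Bicc1 at 44.5 ± 14.2, Epcam at 10.8 ± 2.41, Pkhd1 at 2.35 ± 1.03, Cftr at 1.37 ± 0.189 and Prom1 at 0.0331 ± 0.00915 (SD, n = 3). With these lengths Cd24a and Cd44 did not differ beyond their spread, nor did Cd44 and Cd34 or Pkhd1 and Cftr. In KO1 the order began Spp1, Cd24a at 203, Bicc1 at 52.8, Cd44 at 21.2 and Pkhd1 at 13.2, and in KO2 it began Spp1, Cd24a at 198, Cd44 at 76.7, Bicc1 at 58.5 and Pkhd1 at 7.12. The 4 other genes were each below 0.1 CPM per kb in both clones. Pkhd1 depends most on the length used, since its longest transcript has 12935 bases and the median of its 4 transcripts is 1278.5. With median lengths it stood at 23.7, 133 and 72.1 CPM per kb in WT, KO1 and KO2. In KO1 that placed it above Bicc1 at 91.2 and Cd44 at 60.1. With median lengths in WT, Cd44 at 357 ± 82.1 and Cd34 at 118 ± 8.23 differed beyond their spread. So did Pkhd1 at 23.7 ± 10.4 and Cftr at 1.65 ± 0.228.

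The wider lists place these genes. Of 22 cholangiocyte identity genes, all tested, 4 were called higher and 16 lower in KO1, and 0 higher and 16 lower in KO2 by edgeR (0 higher also unadjusted, by limma-voom and by DESeq2), with medians of -4.08 and -3.14, and their summed level ran from 12239 to 13012 CPM in WT, 929 to 1408 in KO1 and 516 to 794 in KO2. Krt8, Krt18 and Krt19, singled out after their values were seen, made up 85.7% to 89.0% of that sum in WT libraries. Without them the sum of the other 19 genes ran from 1401 to 1857 CPM in WT, 929 to 1408 in KO1 and 516 to 793 in KO2, so that WT and KO1 overlapped. Of 15 tested liver progenitor and ductular reaction genes, 4 were higher and 4 lower in KO1, and 4 higher and 5 lower in KO2. Igf2, a fetal growth factor, averaged 0.127 CPM in WT, 376 in KO1 and 406 in KO2, and Lgr5, a receptor of Wnt-responsive stem cells, 0.0315, 10.9 and 26.7 (both called higher in each clone). These means hide a wide spread within groups. Igf2 stood at 211, 228 and 690 CPM in the KO1 libraries and at 579, 527 and 112 in KO2. Lgr5 stood at 3.67, 3.79 and 25.4 CPM in KO1 and at 25.3, 22.6 and 32.1 in KO2. Alcam, an adhesion molecule, averaged 189, 1.43 and 9.22 CPM, and Cd9, a tetraspanin, 555, 105 and 204 (both called lower in each clone).

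Of 13 tested fibroblast and stellate cell markers, 10 were called higher and 1 lower in KO1 and 11 higher and 0 lower in KO2 by edgeR (0 lower also unadjusted, by limma-voom and by DESeq2). Their summed level over 18 genes ran from 633 to 1145 CPM in WT, 14518 to 17160 in KO1 and 8546 to 10279 in KO2, with Col1a1 averaging 99.4, 8530.3 and 4735 CPM and Postn 0.445, 2346 and 1209.7. Of the 18 genes, 4 in WT, 1 in KO1 and 3 in KO2 had no more than 3 counts in any library. Spp1 and Pkhd1 rose in the same libraries as these markers. KO1 and KO2 are each 1 single-cell clone, and whether the same cells held these transcripts was not tested.

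**Figure D4:**
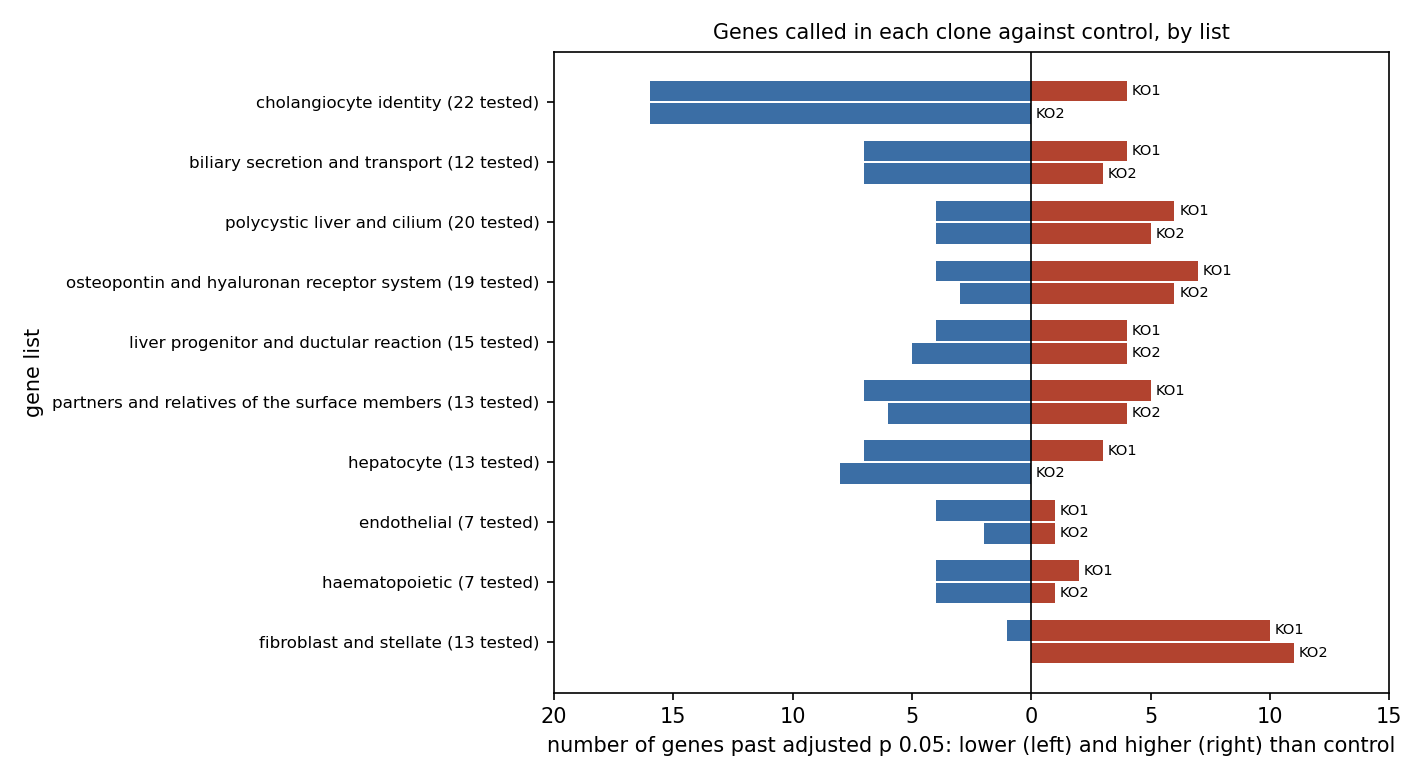
Number of genes past an adjusted p of 0.05 in each list, lower than WT to the left of 0 and higher to the right, with KO1 above KO2 for each list and the number tested in brackets. The cholangiocyte list lies mostly on the left (16 lower in each clone), the fibroblast and stellate list on the right (10 and 11 higher), and the polycystic, osteopontin and progenitor lists on both sides.

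By Pearson's r of log2 CPM over the 9 libraries, among 10870 genes with a mean of at least 5 CPM, the pattern most like Spp1 was that of Ube3c and of Fbn1 (r = 0.99 each), Fbn1 rising from 16.6 to 296 and 202 CPM. Cd44 was most like Pfkp (0.997), which averaged 205 CPM in WT, 30.2 in KO1 and 121 in KO2. Epcam was most like Wfdc2 and Spats2l, Cd34 most like Anxa13 and Slc35d1, and Cftr most like Misp and Klhl1 (0.997 to 0.998), and 47, 52 and 80 genes had an r above 0.99 with these 3 genes. Pkhd1 was most like Atp11a (0.99) and Sec31a (0.98), both in the order KO1, KO2, WT. For Cd24a the closest were Nsmaf (0.96) and Adam10 (0.96), for Bicc1 Ddr1 (0.97) and Cd81 (0.95), and for Prom1 Wdr59 (0.90) and Plk2 (0.83), the last resting on few counts. With 3 groups of libraries, any genes that share the difference between groups correlate this way.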

How the data were processed

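RNA from 9 cultures of PPTR cells (3 WT, 3 KO1, 3 KO2) was sequenced by the authors as stranded, paired-end mRNA libraries. The authors estimated read pairs per transcript with kallisto (version 0.46.1 per the submitters' processing notes) against GENCODE transcripts of GRCm38, also written mm10. The deposited table holds estimated counts for 55276 gene symbols without normalization. The values were whole numbers already, so no rounding was needed, and 0 rows lacked a name. The step from transcripts to genes is not given in the sources used here. Since kallisto shares reads between transcripts by estimation, members with sequence in common with other genes were checked by 31-base words.

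Each library was placed in its group by its label, and replicate numbers only name libraries. Library totals lay between 53415907 and 125223073 counts, and counting intervals (95%, exact) cover counting error only. Counts were scaled with TMM, filtered with filterByExpr (17672 genes kept) and tested with edgeR 4.0.16 (quasi-likelihood, Benjamini-Hochberg, R 4.3.3). KO1, KO2 and WT entered 1 model as 3 groups for the clone comparisons, and a model of 2 groups served to pool the clones, as the study did. Log2 CPM used a prior count of 2. Means are given ± SD over libraries. The study's own limma-voom after TMM, limma 3.58.1, was an alternative, as were DESeq2 1.42.0, upper quartile normalization, library totals only (added after the data were seen), no filter, a filter at a mean of 1 CPM, 6-library fits, the average of the clone contrasts and leaving out each library. The model was first run on simulated counts in which few genes changed, by small amounts and alike in both clones. The real changes are far more and larger, so that run does not show how the model behaves on them.

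All 9 members were reported whatever their values. From each gene list the rule named the 2 largest rises and the 2 largest falls called in the pooled comparison among genes averaging 1 CPM or more, and some partners regardless of value. Genes most like a member were the 2 with the highest Pearson r among genes averaging 5 CPM or more. The members, lists and motifs were chosen with earlier results of these data known. Of the 21 symbols in the osteopontin list, 20 were found in the table under that name. Lengths and positions came from GENCODE vM21 and promoter windows from RefSeq, both of GRCm38. Some genes that the rule names are not reported here.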

Additional observations from a re-analysis of the deposited data

Results flagged for a closer look

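Among the 6 clone libraries, 3 of the genes had a library far from the others by Dixon's ratio of gap to range, whose critical value for 6 values is 0.625. For Spp1 the ratio was 0.811, from KO2 replicate 3 at 7459 CPM below 10166 to 10797 in the other five. For Epcam it was 0.835, from KO1 replicate 1 with 6 counts where the others had 0 or 1. For Bicc1 it was 0.671, from KO1 replicate 3 at 222 CPM below 297 to 333. Chance alone passes this limit in about 1 of 20 groups, and each of the 3 values came from a different library. Whether passage or culture state moved with them was not tested.

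Cd44 changed by different amounts in KO1 and KO2, with a log2 difference of -1.86 (edgeR adjusted p = 3.0e-04), with all 3 KO1 libraries below all 3 of KO2. What sets the clones apart beyond their edit was not tested.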

How the results depend on the processing

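Of the log2 fold changes of the tested genes under the alternatives, 485 kept their direction and their side of the threshold, 13 passed it, 5 lost it and 7 turned their sign. Each that turned came from leaving out 1 library and was called neither before nor after. Over those settings Bicc1 in KO1 ran from -0.015 (without WT replicate 2) to 0.51. Between the clones Spp1 ran from -0.055 (without KO2 replicate 3) to 0.20, Cftr from -1.998 (without KO1 replicate 2) to 2.66, Bicc1 from -0.27 to 0.0051 (without KO1 replicate 3), and Cd24a from -0.083 to 0.074, with -0.0064 without WT replicate 2, -0.071 without KO1 replicate 1 and -0.083 without KO2 replicate 3. Leaving out 1 library at a time gave 2 to 4 genes called higher in KO2, the 4 arising without WT replicate 3 through Cd24a and Bicc1. Between the clones it gave 0 to 1 higher in KO1, and DESeq2, upper quartile normalization and no filter each gave 1, which was Pkhd1. Scaling moved the median of all genes by no more than 0.07 on the log2 scale. The count of all genes called ran from 8194 to 11033 in KO1 and from 7189 to 9539 in KO2 over the settings that leave no single library out. No paired analysis was possible because the labels give no replicate numbers shared between groups. Depth limits Prom1 in every library and Epcam, Cftr and the clone differences of both, while for the other genes the spread over 3 libraries sets the precision.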

Other observations

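Hepatocyte markers, which progenitors of the liver can share with biliary cells, were mostly lower in the clones. Of 13 tested, 3 were called higher and 7 lower in KO1 and 0 higher and 8 lower in KO2 by edgeR (0 higher also unadjusted, by limma-voom and by DESeq2), and their summed level ran from 764 to 1090.4 CPM in WT, 60.5 to 164 in KO1 and 97.1 to 141 in KO2. That sum covers all 20 genes of the list, and most of it in the clones was Ass1, singled out after its values were seen. Ass1 averaged 104 CPM in WT, 121 in KO1 and 113 in KO2, and was not called against WT in either clone. Its libraries ran from 52.7 to 160 CPM in KO1 and from 94.9 to 140 in KO2. Hnf4a, the leading hepatocyte transcription factor, averaged 226 CPM in WT and had 0 counts in all 6 clone libraries. Apob, the structural protein of secreted lipoprotein, averaged 464 CPM in WT and 0.103 and 0.128 in the clones.

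The WT libraries differed among themselves in a pattern that 5 of the 9 genes shared. Cd44, Epcam, Cd24a, Pkhd1 and Bicc1 were each highest in WT replicate 3 and lowest in WT replicate 2, with highest over lowest ratios of 1.60, 1.56, 1.82, 2.38 and 1.88. Spp1 ran otherwise, highest in WT replicate 2 and lowest in WT replicate 1 (1.52). WT replicate 2 was also the shallowest library, with 53415907 counts, and its part in this pattern was not tested. The pattern was noticed after the values were seen, and the share of all tested genes in the same order was not counted. It was not confined to these genes: Anxa4 stood at 535, 458 and 676 CPM in WT replicates 1, 2 and 3.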
